A study of Mus musculus with 2 samples.

Results

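Keratins are the intermediate filament proteins of epithelial cells, and this account covers the 53 protein-coding keratin genes among the 55536 genes measured in mammary tumors of MMTV-PyVT mice. The members were taken by name, as rows whose identifier is a protein-coding gene in GENCODE M21 with a symbol of Krt, a number and at most 1 letter. No cut on a measured value was used within the family, but the family was chosen with earlier results of these data known. Of the 53, 28 are type I (acidic) and 25 type II (basic) chains. RNA was sequenced as 1 library of mammary tumor from mice given cyanidin-3-glucoside (C3G), a plant anthocyanin, and as 1 from mice given the solvent dimethyl sulfoxide (DMSO), called the treated and the control tumor here. Whether a library came from 1 tumor, 1 mouse or a pool is not given in the sources used here. Mice of both groups carried the MMTV-PyVT transgene, in which a mouse mammary tumor virus promoter drives polyoma middle T antigen in mammary epithelium, so the controls are tumors too and no normal gland was included. Treatment started at ductal hyperplasia and tissue was taken at a set tumor burden. The dose, duration and age of the mice were not given in the sources used here.

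A keratin filament is assembled from pairs of 1 type I and 1 type II chain, and the pair made tells which kind of epithelium a cell belongs to. Simple epithelium, such as the luminal layer of the mammary duct, makes Krt8 and Krt18, often with Krt7 and Krt19. Basal cells of stratified epithelium and the myoepithelial layer of the gland make Krt5 and Krt14, while Krt1 and Krt10 belong to the cornifying layers of skin, Krt4 and Krt13 to moist mucosa, and a further set to hair. The genes lie in a type I cluster on chromosome 11 and a type II cluster on chromosome 15, with the type I gene Krt18 at the edge of the latter beside its partner Krt8.

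Levels are given in TPM, a read count per gene length scaled so that each library sums to 1000000. Reads recovered from TPM and gene length numbered 12192275 for the control and 16081110 for the treated tumor. With 1 library per treatment nothing was tested, no value has a replicate, and a difference between the libraries cannot be told apart from a difference between the animals or tumors sampled. Intervals after a fold are 95% intervals for counting error only. The log2 ratio is log2((C3G TPM + 1)/(DMSO TPM + 1)). Genes were called by size where this ratio was 1 or more in either direction and the larger of both levels was 5 TPM or more. Over all genes 12780 reached 5 TPM in either tumor, and 7.40% of these were called, 3.10% as higher and 4.30% as lower in the C3G tumor. The luminal markers Krt8, Krt18 and Krt19 and the basal markers Krt5 and Krt14 were all present in both tumors, as the mammary tumor label would have it. In bulk tissue, fewer cells of a type and less RNA per cell cannot be told apart.

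Of the 53 keratin genes, 19 had no read in either tumor and 17 reached 1 TPM in at least 1 of them. The 36 that did not reach 1 TPM held at most 8 reads each and 0.0880% and 0.0940% of the summed keratin level in the control and treated tumors. Over all members 23 had a lower value in the C3G tumor, 11 a higher one and 19 stayed at 0. Over all 55536 genes 11520 had a lower value, 15161 a higher one and 28855 no read in either tumor. The directions of the members under 1 TPM rest on few reads. Of the 10 members that reached 5 TPM, 3 were called by size, Krt19 and Krt7 as lower and Krt79 as higher, beside the 7.40% called among all genes at that level. Among the 15 members with a mean of at least 1 TPM the median log2 ratio was -0.57, against 0.10 over the 17468 genes at that mean.

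**Figure D1:**
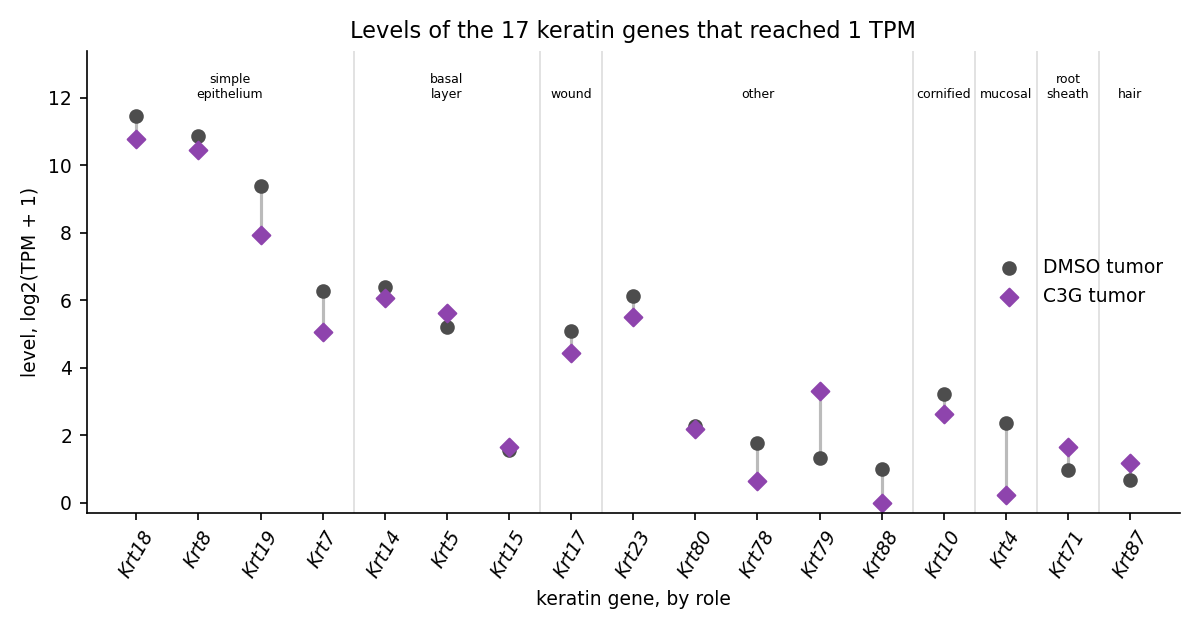
Level of the 17 keratin genes that reached 1 TPM, as log2(TPM + 1), in the DMSO tumor (circles) and the C3G tumor (diamonds), grouped by role, 1 library per treatment. Krt18, Krt8 and Krt19 stand highest and are lower in the C3G tumor, while Krt79 is the member with the largest upward gap.

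The simple epithelial keratins made up most of the keratin RNA and all 5 had a lower value in the treated tumor. Krt18 (mm10 chromosome 15, 102028180 to 102032027, plus strand), the type I chain of luminal cells, stood at 2824 TPM in the control and 1769 TPM in the treated tumor, and ranked 29 and 54 among all genes. That is 1.60-fold lower (1.56 to 1.63). Its type II partner Krt8 (chromosome 15, 101996698 to 102004482, minus strand) stood at 1890 and 1420 TPM, 1.33-fold lower (1.30 to 1.36). Both fell short of the call by size. The distance between the genes of this pair, which point away from each other, is 23697 bases.

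Krt19 and Krt7 differed more than the main pair. Krt19 (chromosome 11, 100140810 to 100148665), a type I chain without the usual tail domain that is made in glandular epithelium, stood at 678 TPM in the control tumor, from 5450 reads, and at 246 TPM in the treated one, from 2509 reads. Its log2 ratio was -1.46 and it was called lower. Krt7 (chromosome 15, 101411043 to 101430313), a type II chain of glandular ducts, stood at 76.1 and 32.2 TPM from 2327 and 1249 reads. It was 2.36-fold lower (2.20 to 2.53) and was called lower too. Set against Krt18 in the same library, the Krt19 level was 0.240 in the control and 0.139 in the treated tumor, a ratio of these ratios of 0.580 (0.550 to 0.611). Krt7 over Krt8 was 0.0403 and 0.0227, a ratio of 0.564 (0.524 to 0.607). Both genes were thus lower relative to the main pair as well. Krt7 over Krt19 was 0.112 and 0.131, a change of 1.17-fold (1.07 to 1.27). Krt20, the fifth simple keratin, known from gut and urothelium, had 8 and 5 reads.

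Luminal genes outside the keratin family were compared next. The summed level of the epithelial adhesion and junction genes Epcam, Cdh1, Cldn3 and Cldn7 was 2820 TPM in the control and 2694 TPM in the treated tumor, with a median log2 ratio of -0.08. The summed keratin level was 2.03 times this sum in the control and 1.36 times in the treated tumor. Of 20 luminal genes that are not keratins, 7 had higher and 13 lower values, and the median log2 ratio was -0.08. Of the 18 that reached 5 TPM, 1 was called lower, beside 4.30% among all genes at that level. It was the luminal transcription factor Foxa1, at 19.2 and 7.49 TPM. The tetraspanin gene Tspan8, at 110 and 56.2 TPM, and the growth factor gene Areg, at 10.6 and 5.39 TPM, had the next most negative log2 ratios among list genes at 5 TPM but were not called. Pgr, at 4.91 and 1.49 TPM, was 3.30-fold lower (2.49 to 4.41) but stayed just below the 5 TPM needed for a call. Prom1, of the same list, stood at 31.8 and 53.7 TPM, higher in the treated tumor.

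Summed over all 53 genes the keratin level was 5720 TPM in the control and 3674 TPM in the treated tumor, 1.56-fold lower. The sum of type I chains was 3701 and 2156 TPM, 1.72-fold lower, and that of type II chains 2018 and 1518 TPM, 1.33-fold lower. Type I RNA therefore exceeded type II RNA 1.83-fold in the control and 1.42-fold in the treated tumor. Krt8 over Krt18 moved the same way, from 0.669 to 0.802, a change of 1.20-fold (1.16 to 1.24). The size of these ratios in each tumor depends on how reads shared between Krt8 and other genes were counted. That was not tested, and the shared share of Krt8 is given below. Krt8 and Krt18 together took 82.4% of the keratin level in the control and 86.8% in the treated tumor. Of the 43456 and 35322 keratin reads, Krt19 took 12.5% (12.2% to 12.9%, Wilson interval) in the control and 7.10% (6.84% to 7.38%) in the treated tumor.

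**Figure D2:**
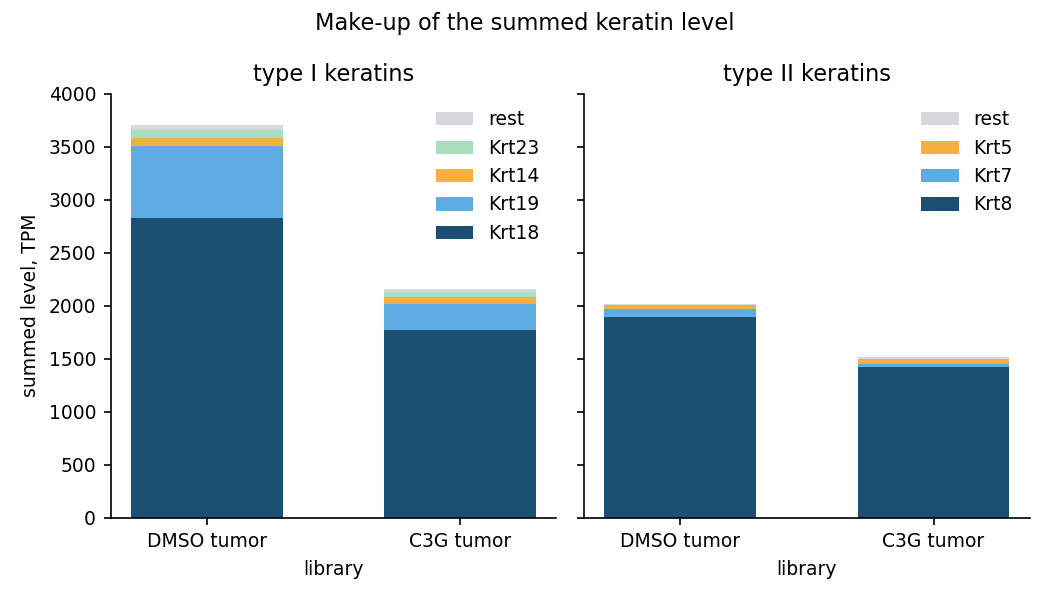
Summed level in TPM of type I keratins (left) and type II keratins (right) in each tumor, stacked by gene, with the remaining members of each type as the rest. The type I column is 3701 TPM with DMSO and 2156 TPM with C3G, the type II column 2018 and 1518 TPM, and the Krt19 segment measures 678 and 246 TPM.

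The basal keratins were split, with Krt5 higher and Krt14 lower in the treated tumor. Krt5 (chromosome 15, 101707070 to 101712898), the type II chain of basal cells, had 345 reads in the control and 584 in the treated tumor, at 36.2 and 48.4 TPM, 1.34-fold higher (1.17 to 1.53). Krt14 (chromosome 11, 100203162 to 100207548), its type I partner, had 638 reads in each library, which at the different depths gave 83.7 and 66.0 TPM, 1.27-fold lower (1.13 to 1.42). Neither was called. The partners thus went opposite ways, and Krt5 over Krt14 was 0.433 in the control and 0.732 in the treated tumor, a change of 1.69-fold (1.42 to 2.02). Krt15, a basal and hair bulge keratin, had 15 and 21 reads, at 1.96 and 2.16 TPM.

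The 3 basal keratins together stood at 122 and 117 TPM and made up 2.13% and 3.17% of the keratin level. Of the 18 genes of the basal and myoepithelial list that are not keratins, 7 had higher and 11 lower values with a median log2 ratio of -0.29. Of the 15 that reached 5 TPM, 5 were called lower, beside 4.30% among all genes at that level. All 5 are smooth muscle contraction genes, with Acta2 at 712 and 318 TPM, Myh11 at 92.9 and 38.7 TPM, and Cnn1 at 108 and 42.2 TPM. Tagln stood at 9.98 and 4.21 TPM, and Mylk at 77.4 and 37.3 TPM. Members of the list outside these 5 went both ways. Itga6, at 84.0 and 120 TPM, Col17a1, at 7.71 and 11.4 TPM, and the basal transcription factor Trp63, at 11.9 and 14.9 TPM, were higher. Oxtr, at 39.5 and 27.7 TPM, and Cdh3, at 4.89 and 2.95 TPM, were lower. Snai2 stood at 13.9 and 14.3 TPM.

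Keratins induced in wounded or overgrowing epidermis number 4 here, and Krt17 was the 1 that reached 1 TPM. Krt17 (chromosome 11, 100256217 to 100261029) had 223 reads in the control and 177 in the treated tumor, at 33.2 and 20.8 TPM, 1.60-fold lower (1.30 to 1.96), and was not called. Krt6a had 3 and 5 reads, Krt16 had 0 and 5, and Krt6b had none, so the type II partners with which Krt17 is usually paired in skin were close to the floor of 3 reads. Krt23, a type I keratin whose main role is less settled, stood at 68.5 and 44.4 TPM, 1.54-fold lower (1.34 to 1.77). Its level lay between those of Krt14 and Krt5 in the control tumor.

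Cornification keratins were scarce. Krt10 (chromosome 11, 99385254 to 99389364), the type I chain of suprabasal epidermis, stood at 8.29 and 5.25 TPM from 76 and 61 reads, and its interval of 1.11 to 2.25-fold lower was wide. Its partner Krt1 had 1 read with DMSO and 8 with C3G, so that Krt10 was found almost without the type II chain it pairs with in skin. Krt9, of palm and sole skin, had 7 and 5 reads, Krt77 had 0 and 1, and Krt2 had none in either tumor. Of the 37 cornified envelope genes 27 had no read in the DMSO tumor and 25 none in the C3G tumor, among them the filaggrin gene Flg. Loricrin (Lor) had 0 and 8 reads and involucrin (Ivl) 2 and 0. The 4 members of that list that reached 5 TPM were Sprr1a, Tgm1, Sbsn and Dmkn. Sprr1a, a small proline-rich envelope protein, had 111 reads in the control and 16 in the treated tumor, and was the 1 member of that list that was called. The cross-linking enzyme gene Tgm1 stood at 20.5 and 21.5 TPM, Sbsn at 23.2 and 14.9 TPM, and Dmkn at 16.7 and 21.8 TPM.

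Krt79, Krt4 and Krt78 are neighbours in the type II cluster, and each had a log2 ratio above 1 in size. Krt79 (chromosome 15, 101929332 to 101940324), a type II keratin known from the hair follicle infundibulum and the duct of the sebaceous gland, had 31 reads with DMSO and 236 with C3G, at 1.50 and 9.04 TPM. It was 6.01-fold higher (4.12 to 9.04) in the C3G tumor, and was the 1 keratin called higher. Krt4 (chromosome 15, 101918535 to 101924735), the type II chain of mucosal epithelium, lies 4596 bases from it and went the other way, with 39 reads with DMSO and 2 with C3G, at 4.22 and 0.171 TPM. Its ratio was 24.7-fold lower (6.40 to 211), but its level stayed below the 5 TPM needed for a call. Krt13, with which Krt4 pairs in mucosa, had 1 read in each library. Krt78 (chromosome 15, 101946001 to 101954287), 5676 bases beyond Krt79 on the other side, had 36 and 11 reads, at 2.42 and 0.582 TPM, 4.15-fold lower (2.07 to 9.03), and was too low to be called. The gene with more reads in the treated tumor thus lay between a pair of genes with fewer reads there, all 3 on the minus strand. Krt80, at the other end of the cluster, stood at 3.90 and 3.56 TPM.

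**Figure D3:**
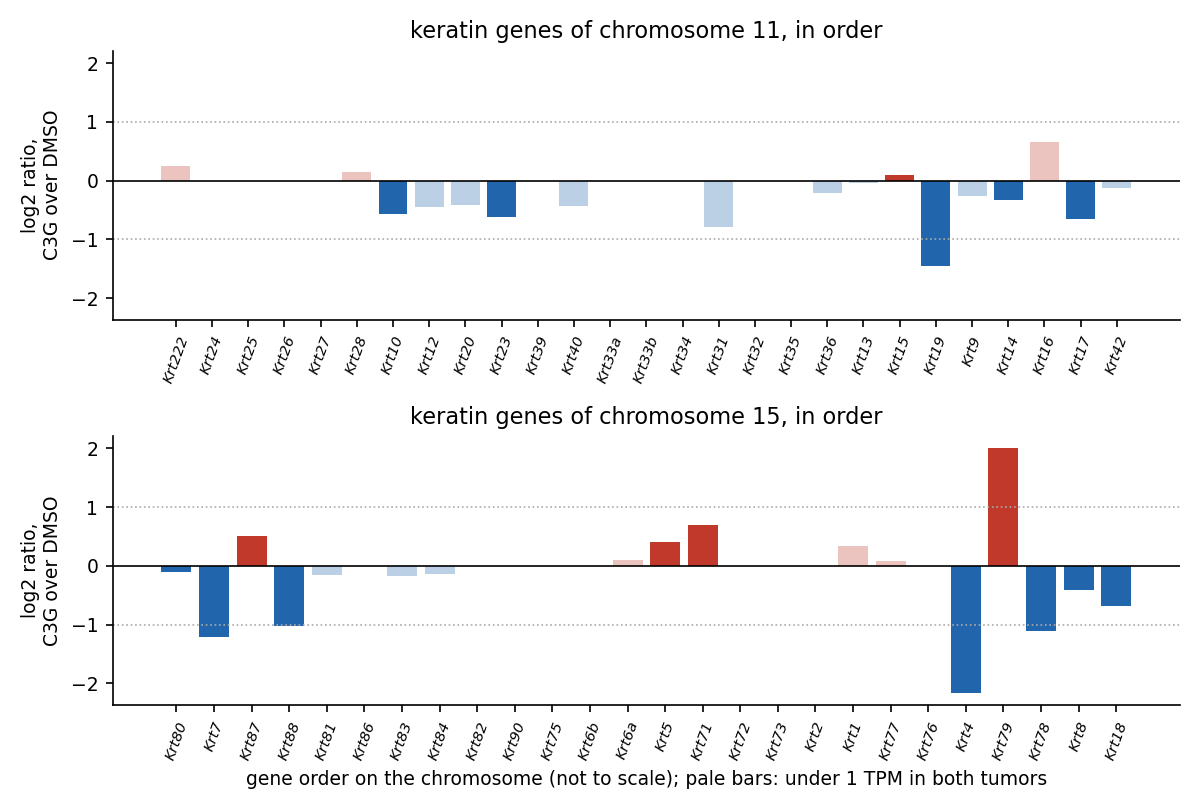
Log2 ratio, log2((C3G TPM + 1)/(DMSO TPM + 1)), of each keratin gene in its order on chromosome 11 (top) and chromosome 15 (bottom), with pale bars for genes under 1 TPM in both tumors and dotted lines at a size of 1. Krt79 points up between Krt4 and Krt78, which point down, and Krt19 is the lowest bar of chromosome 11.

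The sequences around the RefSeq starts of 5 of these genes are shown because the Krt8 and Krt18 pair carries most of the keratin RNA, Krt7 was called lower, and Krt79 and its neighbour Krt78 differed in opposite directions. Windows of 300 bases were found for 36 of the 53 members in RefSeq (GRCm38.p6). Krt19, also called lower, and Krt4, the other neighbour of Krt79, were not among these. Capitals mark matches to 4 short words searched on both strands, so that a match may read as the reverse complement, and overlapping matches run together. The AP-1 word, for the factors of the Fos and Jun families, was TGANTCA. The word for the TATA box, where the basal transcription machinery binds, was TATAAA. Factors of the ETS family were represented by the word AGGAAG. For the KLF family, to which Klf4 belongs, the word was CCACCC. The window of Krt7 begins after the first base of the GENCODE gene and falls within its bounds, since RefSeq places the start further downstream. The windows are Krt8 at chr15:102004293-102004592 (minus strand), Krt18 at chr15:102027966-102028265 (plus strand), Krt7 at chr15:101412153-101412452 (plus strand), Krt79 at chr15:101940275-101940574 (minus strand) and Krt78 at chr15:101954238-101954537 (minus strand).
Krt8: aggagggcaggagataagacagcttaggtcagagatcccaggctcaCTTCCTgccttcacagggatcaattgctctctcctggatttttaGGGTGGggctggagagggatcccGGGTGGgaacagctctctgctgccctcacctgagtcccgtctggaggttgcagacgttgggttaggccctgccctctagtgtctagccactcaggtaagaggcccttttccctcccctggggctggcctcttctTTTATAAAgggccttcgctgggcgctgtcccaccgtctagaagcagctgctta
Krt18: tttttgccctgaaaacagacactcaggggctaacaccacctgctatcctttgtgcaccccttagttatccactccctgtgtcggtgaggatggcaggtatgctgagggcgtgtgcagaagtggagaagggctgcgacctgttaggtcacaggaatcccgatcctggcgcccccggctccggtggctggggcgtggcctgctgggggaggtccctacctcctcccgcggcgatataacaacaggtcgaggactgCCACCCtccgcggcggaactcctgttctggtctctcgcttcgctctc
Krt7: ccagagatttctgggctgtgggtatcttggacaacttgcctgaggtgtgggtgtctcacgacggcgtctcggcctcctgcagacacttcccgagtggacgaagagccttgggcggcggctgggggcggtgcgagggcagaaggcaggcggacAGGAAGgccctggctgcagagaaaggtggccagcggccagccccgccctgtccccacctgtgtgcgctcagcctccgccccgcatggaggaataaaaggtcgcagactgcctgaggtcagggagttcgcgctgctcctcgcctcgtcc
Krt79: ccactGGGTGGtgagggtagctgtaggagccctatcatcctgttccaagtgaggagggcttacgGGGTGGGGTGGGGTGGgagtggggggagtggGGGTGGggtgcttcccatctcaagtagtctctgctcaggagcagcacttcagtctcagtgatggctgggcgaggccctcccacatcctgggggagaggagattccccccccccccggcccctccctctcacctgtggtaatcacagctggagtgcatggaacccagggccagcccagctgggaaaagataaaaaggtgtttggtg
Krt78: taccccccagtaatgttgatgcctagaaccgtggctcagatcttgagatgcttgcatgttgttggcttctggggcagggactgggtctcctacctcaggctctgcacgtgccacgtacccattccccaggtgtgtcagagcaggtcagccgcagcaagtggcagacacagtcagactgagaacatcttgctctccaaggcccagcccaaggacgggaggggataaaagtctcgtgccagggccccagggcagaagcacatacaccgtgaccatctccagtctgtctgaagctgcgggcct

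The window of Krt79 held the KLF word 5 times, mostly in a G-rich stretch, and that of Krt78 held none of the 4 words. The Krt8 window held the TATA word in both orientations at 1 place, at -3 and -1 from the RefSeq start. It also held the KLF word 2 times and the ETS word once, and the Krt18 window held the KLF word once. Most of the Krt8 window lies inside the GENCODE gene, whose first base on the minus strand is 102004482. A match is a run of letters and not a known site. Over all 37 windows of keratin genes, 51.4% held the TATA word, against 13.6% of all 32851 windows. For the KLF word the shares were 45.9% and 31.5%, for the ETS word 40.5% and 35.4%, and for the AP-1 word 5.41% and 7.81%. Krt13 had 2 windows, and these were the keratin windows with the AP-1 word. The window of Krt14 and 1 of those of Krt13 also fall within the gene bounds and are counted in these shares. Of the 10 windows of keratin genes that reached 1 TPM in these tumors, 3 held the TATA word and 6 the KLF word.

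Hair and root sheath keratins were near the floor. Of 15 hair keratin genes 8 had no read in either tumor, and the group had 19 reads with DMSO and 18 with C3G. Krt87 held 6 and 16 of these, at 0.608 and 1.28 TPM. Of 8 root sheath genes 6 had no read, and Krt71, a keratin of the inner root sheath, had 9 and 26 reads, 2.28-fold higher (1.04 to 5.53) at 0.950 and 2.16 TPM. Krt88 had 4 reads with DMSO and 0 with C3G, where 0 reads allow up to 0.605 TPM. The cornea keratin Krt12 had 4 and 1 reads. Of the 58 genes of keratin-associated proteins, which fill the hair shaft between its filaments, 56 had no read in the DMSO tumor and 57 none in the C3G tumor.

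Markers of skin and hair were checked beside these values. Of 20 genes, 13 had no read with DMSO and 11 none with C3G, and their summed level was 40.5 and 38.9 TPM, of which the protease gene Asprv1 made up 32.8 and 30.9 TPM. Over the list 5 genes had higher and 5 lower values, 10 were at 0 in both tumors, and none was called. The genes at 0 in both include the defining skin genes Flg and Krtdap. Values were higher in the treated tumor for the cornified layer genes Lor, with 0 and 8 reads, and Cdsn, with 7 and 21. The same held for Dsc1, with 0 and 3 reads, Casp14, with 0 and 1, and Lgr5, with 24 and 37. These 5 differed in the same direction as Krt79, and their part in its value was not tested. Values were lower for Asprv1, for Scd3, at 4.03 and 3.28 TPM, and for Tchh, at 1.39 and 1.34 TPM. Their intervals included no change as well. The hair follicle gene Padi3, with 14 reads in the control and 5 in the treated tumor, and S100a3, with 5 and 0, were lower too. Cell types other than epithelium also differed between the libraries. All 10 fat cell genes were higher with C3G, with a summed level of 243 and 1375 TPM. Of the 9 that reached 5 TPM, 7 were called, beside 3.10% called higher among all genes at that level. All 10 endothelial genes reached 5 TPM and were higher too, 5 of them called, at 45.7 and 114 TPM. Of 10 leukocyte genes 8 had lower and 2 higher values, and the median log2 ratio of the 7 with a mean of at least 1 TPM was -0.84. Of the 5 that reached 5 TPM, the lymphocyte genes Cd2 and Nkg7 were called lower. The sums of the leukocyte list, 790 and 797 TPM, were carried by the myeloid lysozyme gene Lyz2, at 726 and 758 TPM. That median lay between -1.18 (pseudocount of 0.1) and -0.24 (no filter, or a mean of at least 5 TPM) under the alternatives run. The 10 skeletal muscle genes summed to 7.50 and 6.56 TPM. The part of these cells in the keratin values was not tested.

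**Figure D4:**
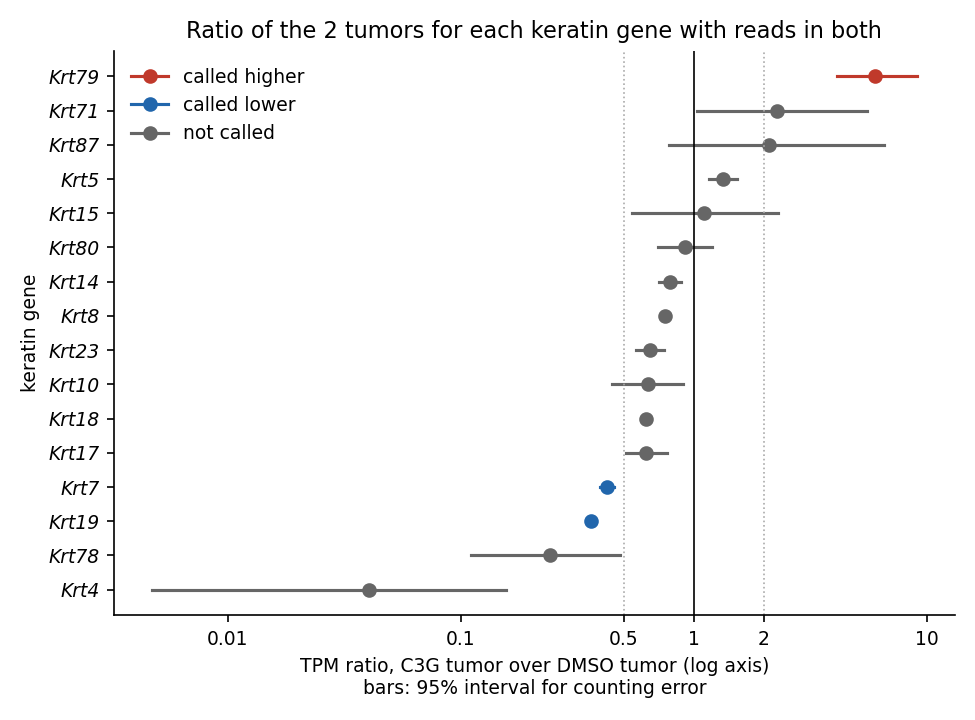
TPM ratio of the C3G tumor over the DMSO tumor (log axis) for the 16 keratin genes that reached 1 TPM and had reads in both tumors, with 95% intervals for counting error. Dotted lines mark ratios of 0.5 and 2, and the widest bars belong to Krt4, Krt87 and Krt71, which rest on few reads.

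Genes that anchor keratin filaments were read beside the family. Of 21 genes of desmosomes and plakins, which tie the filaments to junctions, 5 had higher and 14 lower values, none was called, and the median log2 ratio was -0.15 against 0.10 over all genes. Plakoglobin (Jup) stood at 120 and 107 TPM, desmoplakin (Dsp) at 16.8 and 14.6 TPM and the linker gene Plec at 29.4 and 24.8 TPM. The desmosomal cadherins Dsg2 and Dsc2 were on the upper side, at 38.5 and 54.9 TPM and at 30.5 and 46.1 TPM, 1.42-fold (1.33 to 1.52) and 1.51-fold (1.38 to 1.66) higher. Envoplakin (Evpl), at 12.7 and 8.49 TPM, and Tchp, at 6.39 and 5.09 TPM, were on the lower side.

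Transcription factors known to act on keratin genes went both ways. Of 28 listed, 13 had higher and 13 lower values, and the median log2 ratio was -0.09. Of the 22 that reached 5 TPM, 2 were called lower, beside the 4.30% called lower among all genes at that level. Klf4, a factor of epidermal barrier formation, had 2656 reads in the control and 1494 in the treated tumor, at 201 and 89.2 TPM, 2.25-fold lower (2.11 to 2.40), and Foxa1, given above, was the other called gene. Gata3, needed for luminal identity, stood at 365 and 239 TPM, and Sox9 at 233 and 149 TPM. Elf5, a factor of the secretory luminal lineage, stood at 222 and 235 TPM, and Grhl2, which keeps epithelial genes on, at 25.3 and 28.0 TPM. Among the higher members the largest log2 ratios were those of Cebpa and Notch1. Cebpa stood at 53.6 and 78.9 TPM, 1.47-fold higher (1.33 to 1.63). Notch1 stood at 17.7 and 24.5 TPM, 1.38-fold higher (1.28 to 1.49), and neither was called.

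**Figure D5:**
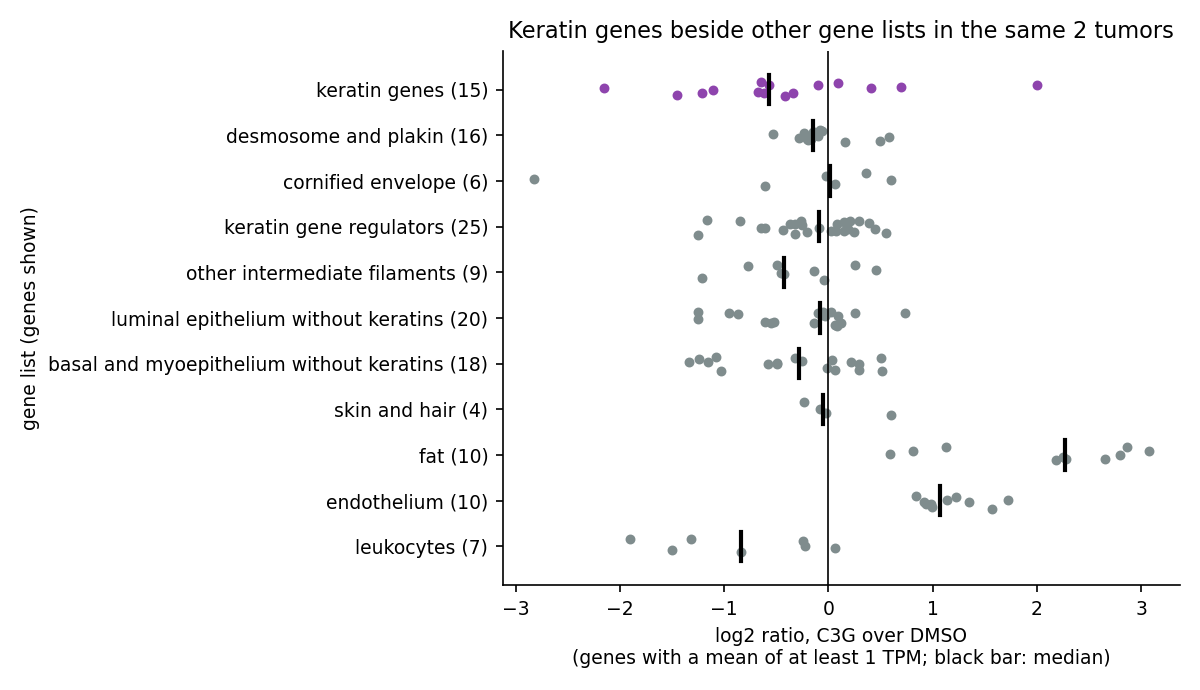
Log2 ratio, C3G over DMSO, of genes with a mean of at least 1 TPM in the keratin family and in 10 other gene lists, with the number of genes shown in brackets and the median as a black bar. The keratin median of -0.57 lies below those of the desmosome and luminal lists, and the fat and endothelium lists lie far to the right.

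Reads shared between related genes bear on some of these levels. The share of a gene's 50-base words that also occur in transcripts of another gene was 0% for Krt19, Krt4, Krt78, Krt79 and Krt23, 0.720% for Krt18 and 0.916% for Krt7. For Krt8 it was 29.7%, nearly all through the pseudogene Krt8-ps on chromosome 7, which had 5 reads in each library. Whether reads from these stretches were counted is not given in the sources used here. If they were left out, the levels of Krt8 and of the type II sum are too low. The type I over type II ratios would then be too high and Krt8 over Krt18 too low. For Krt14 the share was 13.9%, through Krt16 and Krt17, for Krt5 it was 12.2%, mainly through Krt6a, and for Krt6a itself it was 57.2%. Other wound and hair keratins near the floor also had large shares. These were 50.1% for Krt6b, 37.6% for Krt16, 36.9% for Krt87, 43.3% for Krt86 and 37.7% for Krt81. If such reads were left out, the levels of these genes are too low as well. The library kit does not mark the strand, and the antisense genes that overlap exons of the members at 1 TPM had at most 47 reads (Gm671 over Krt7).

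Exon models also set the level of Krt7 and Krt79. The TPM values use the union of all exons of a gene, which is 7049 bases for Krt7 and 4753 for Krt79, while the main coding transcripts have 4094 and 2097 bases. Per main transcript, Krt7 would stand at 131 and 55.5 on the TPM scale, above Krt14 at 86.7 in the DMSO tumor in place of below it, and Krt79 at 3.41 and 20.5. Ratios between the tumors do not depend on this length.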

How the data were processed

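RNA from mammary tumors was sequenced as 1 library per treatment. Per the labels' protocols, the RNeasy Plus kit gave the RNA and the TruSeq RNA kit, version 2, the libraries. Per the submitters' processing notes, FastQC, MultiQC, Trimmomatic 0.38 and featureCounts 2.0.0 were used with build mm10. The aligner is not given in the sources used here. The authors deposited TPM values for 55536 Ensembl genes, all of which matched GENCODE M21.

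In each library the product of TPM and summed exon length came in whole steps (tolerance 0.01) for 100% of values above 0, and each step was taken as 1 read, giving 12192275 and 16081110 reads. Folds are ratios of TPM, with exact conditional 95% intervals from the reads, and changes of a ratio have exact conditional odds ratio intervals. Intervals cover counting error only, since 1 library per treatment gives no spread between samples. Reads are not independent molecules, so the intervals may be too narrow even for that error. Log2 ratios used a pseudocount of 1 and understate changes of low genes. A gene was called at a higher TPM of at least 5 and a log2 ratio of at least 1 in size. Keratin genes were named where either tumor reached 1 TPM, as were up to 4 genes per other list with the largest log2 ratio in size at 5 TPM or more. Genes that met this rule but were not named in the results were Cidec, Retn, Fabp4 and Car3 of the fat list. The same holds for Pecam1, Cldn5, Tie1 and Tek of the endothelial list and Ptprc and Csf1r of the leukocyte list. Outside this rule, and with values seen, the keratin genes Krt1, Krt2, Krt6a, Krt6b, Krt9, Krt12, Krt13, Krt16, Krt20 and Krt77 were added as members of their role groups or partners, and so were the list genes Mylk, Trp63, Itga6, Col17a1, Oxtr, Cdh3, Snai2, Pgr, Elf5, Grhl2, Cebpa, Notch1, Jup, Dsp, Plec, Lor, Ivl, Flg, Krtdap, Cdsn, Dsc1, Casp14, Padi3, Lgr5, Scd3, Tchh, S100a3, Lyz2, Lmna, Synm and Gfap. The keratin genes and lists were chosen with earlier results of these data known, and the list of keratin-associated proteins was added by symbol after the data were seen. No test and no p-value was possible with 1 library per treatment. Python 3.11.15, pandas 2.3.3 and SciPy 1.17.1 were used, and the code was tested on simulated data. Alternatives are given in the closing section.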

Additional observations from a re-analysis of the deposited data

How the results depend on the processing

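Krt19 and Krt7 were called lower under all 9 alternatives run on the calls, and Krt79 was called higher under all of them but the stricter filter (a higher TPM of 20), where 0 keratin genes were called higher and 2 lower. With no filter on low values 6 keratin genes were called, 5 of them lower, because Krt4, Krt78 and Krt88 were added, and the median over all 53 was 0.00. With TPM rescaled without mitochondrial and the 50 most abundant genes Krt4 was called as well. The median log2 ratio otherwise lay between -0.69 (centred on genes with a mean of 10 TPM, a shift of 0.12) and -0.41 (pseudocount of 5), and was -0.49 relative to Epcam, Cdh1, Cldn3 and Cldn7. Centring left 298 of all genes higher and 663 lower, in place of 396 and 550. Of the named keratin genes, Krt15 alone changed sign, to -0.02 after that centring. With reads in place of TPM, Krt8 over Krt18 was 0.912 (DMSO) and 1.09 (C3G), Krt7 over Krt19 0.427 and 0.498, and Krt5 over Krt14 0.541 and 0.915. With the main transcript length, an alternative chosen after seeing the data, Krt7 over Krt19 was 0.164 and 0.192, and Krt8 and Krt18 took 79.8% and 84.8% of the keratin level. These ratios moved because gene lengths differ. Leaving out a replicate was not possible with 1 library per treatment, and members with few reads, such as Krt4, Krt71 and Krt87, are limited by depth.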

Other observations

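Intermediate filament genes outside the keratin family were also lower in the C3G tumor for the most part. Of 16 such genes 2 had higher and 12 lower values, none was called, and the median log2 ratio of the 9 with a mean of at least 1 TPM was -0.43, or -0.04 among those with a mean of at least 5 TPM. Vimentin (Vim), the filament of mesenchymal cells, had 4986 reads in the control (DMSO) and 4472 in the treated (C3G) tumor, at 242 and 172 TPM, 1.41-fold lower (1.36 to 1.47). Nestin (Nes), known from progenitor cells, stood at 54.1 and 39.1 TPM, 1.38-fold lower (1.28 to 1.49). The higher pair were the B-type nuclear lamins, Lmnb1 at 44.5 and 61.5 TPM, 1.38-fold higher (1.25 to 1.54), and Lmnb2 at 11.9 and 14.4 TPM. The A-type lamin gene Lmna stood at 108 and 105 TPM. Synemin (Synm), which joins other filaments, stood at 4.10 and 2.00 TPM, and Gfap, a filament of glia, at 4.43 and 1.34 TPM, both below the level needed for a call.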
